A study of Homo sapiens with 14 samples.

Results

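The 10 rows described here are the 3p arms of the let-7 hairpins and of miR-98, their close relative, as mature miRNAs counted in A549 cells, a human lung adenocarcinoma line. They were chosen by name from the 2588 mature miRNAs of each count table: hsa-let-7a-3p, hsa-let-7b-3p, hsa-let-7c-3p, hsa-let-7d-3p, hsa-let-7e-3p, hsa-let-7f-1-3p, hsa-let-7f-2-3p, hsa-let-7g-3p, hsa-let-7i-3p and hsa-miR-98-3p. Each was set beside the 5p arm of its own hairpin, which gave 9 partners, because let-7f-1-3p and let-7f-2-3p share the partner let-7f-5p. All RNA came from unmodified A549 cells and was decapped, and it was measured with 2 assays for N7-methylguanosine (m7G), a guanine that carries a methyl group. In BoRed-seq, 2 libraries came from RNA treated with NaBH4 (Red), which reduces m7G, and 2 control libraries came from RNA treated with acid-quenched NaBH4 (Ctrl). Low pH, applied to both groups, then leaves an abasic site where a reduced m7G stood. Both groups went through the biotin probe and the streptavidin pulldown, so Ctrl holds what the beads retained without reduction. In m7G-RIP-seq, 5 libraries came from RNA immunoprecipitated with an anti-m7G antibody (IP) and 5 from an aliquot saved before the immunoprecipitation (Input). Input is therefore unselected RNA, not a pulldown with a control antibody. The replicates were not stated to be separate cultures, so the p-values measure the spread between these libraries, which may be technical.

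A let-7 hairpin is cut into a duplex of a 5p and a 3p strand. The 5p strand is the guide, which Argonaute keeps and which represses growth-promoting messages such as HMGA2 and RAS through its seed. The 3p strand is the passenger, most of which is discarded when the duplex is opened, so its reads are few. It pairs with a guide that is rich in guanines and poor in cytosines, and it holds few guanines itself. An m7G pulldown of mature strands can tell the arms apart where each strand is recovered on its own, which was not tested here.

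The mature sequences of 9 of the 10 3p arms were matched in RefSeq (GRCh38.p14). They are shown because the arms differ by few bases, and because only a guanine can carry m7G. Capitals mark the seed, bases 2 to 8 from the 5′ end.
hsa-let-7a-3p: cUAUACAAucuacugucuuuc
hsa-let-7b-3p: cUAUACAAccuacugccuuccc
hsa-let-7f-1-3p: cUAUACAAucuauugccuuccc
hsa-miR-98-3p: cUAUACAAcuuacuacuuuccc
hsa-let-7d-3p: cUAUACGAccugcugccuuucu
hsa-let-7e-3p: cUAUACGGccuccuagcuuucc
hsa-let-7c-3p: cUGUACAAccuucuagcuuucc
hsa-let-7g-3p: cUGUACAGgccacugccuugc
hsa-let-7i-3p: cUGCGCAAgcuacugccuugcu
For comparison, these are the guide arms of let-7a, let-7b and let-7e, the hairpins whose arm ratio passed the test in at least 1 assay.
hsa-let-7a-5p: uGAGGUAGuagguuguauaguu
hsa-let-7b-5p: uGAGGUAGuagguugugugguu
hsa-let-7e-5p: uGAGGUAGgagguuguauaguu

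The first 4 of the 3p arms share the seed UAUACAA, and each of the other 5 has a seed of its own. Counted from the 5′ end, with the base of let-7b-3p first, let-7f-1-3p differs from let-7b-3p by C9U and C13U, let-7a-3p by C9U, C16U and C20U, and miR-98-3p by C10U, G15A and C17U. The 9 3p arms hold 0 to 5 guanines (median 2), against 7 to 10 (median 8) in the 9 guide arms. let-7a-3p, let-7b-3p and let-7f-1-3p each hold 1 guanine, at position 15. The sequence of miR-98-3p holds 0, and the nearest guanine of its hairpin lies 2 bases past its 3′ end. let-7d-3p and let-7e-3p hold 3 each, and let-7e-3p is, with let-7g-3p, the only 3p arm of the 9 with 2 guanines in a row.

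In the GRCh38.p14 annotation, let-7a-3p comes from 2 hairpins, MIRLET7A1 (arm at chr9:94176013-94176033, plus strand) and MIRLET7A3 (chr22:46112800-46112820, plus strand), in exons of the long noncoding host genes MIRLET7A1HG and MIRLET7BHG. Those hosts also carry the arms of let-7f-1-3p (chr9:94176409-94176430), let-7d-3p (chr9:94178895-94178916) and let-7b-3p (chr22:46113745-46113766). let-7e-3p (chr19:51692838-51692859, plus strand) lies in an intron of SPACA6. miR-98-3p (chrX:53556241-53556262, minus strand) lies in an intron of HUWE1, as does the hairpin of let-7f-2 (chrX:53557192-53557274). let-7c-3p (chr21:16539883-16539904) lies in an exon of MIR99AHG, let-7g-3p (chr3:52268280-52268300, minus strand) in an intron of WDR82, and let-7i-3p (chr12:62603747-62603768) in an intron of MIRLET7IHG and in an exon of an unnamed long noncoding gene.

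The deposited counts summed to 4678102 and 5874405 per Ctrl library, 242085 and 277498 per Red library, 7097379 to 14874685 per Input library and 2854811 to 6452759 per IP library. The 10 3p arms together took 1036 and 1579 reads in Ctrl, 455 and 483 in Red, 3738 to 7213 in Input and 2000 to 4252 in IP. A count of 0 in the smallest Red library still allows 12.4 CPM (counts scaled to the same total of miRNA reads per library), which is 3 counts there. Such limits cover counting error only, since the libraries carried no molecular identifiers. Because let-7a-3p, let-7b-3p and let-7f-1-3p are so close in sequence, and alignment allowed 1 mismatch, trimmed reads of these arms could be shared among them in an uncertain way.

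The name passenger fitted the counts in every library. The 3p share of the reads of a hairpin was highest for let-7d-3p, at 19.7% and 23.7% in Ctrl and 15.3% to 19.7% in Input, and stayed under the 5p share for all 10 arms in all 14 libraries. Over all members, 0.421% ± 0.0282 (SD, n = 2) of the let-7 reads in Ctrl were 3p reads, and 0.365% ± 0.000472 (SD, n = 2) in Red. In Input the share was 0.298% ± 0.0276 (SD, n = 5) and in IP 0.213% ± 0.0339 (SD, n = 5). Every IP library lay below every Input library (two-sided exact permutation test, p = 0.00794, the smallest that 252 arrangements allow). That test exchanges libraries freely. A test added after the data were seen, with exchange within the 5 pairs of one replicate number, cannot go below an exact p of 0.0625, which was its value here, with a lower share in IP in 5 of 5 pairs. With 2 libraries per group, the same exact permutation test cannot go below p = 0.333 for Ctrl and Red.

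Among the passengers, let-7b-3p was the most abundant in Input, with 139 ± 44.6 CPM, followed by let-7d-3p with 122 ± 28.2, let-7a-3p with 76.2 ± 11.2 and let-7e-3p with 61.4 ± 9.66 (SD, n = 5). The ranges of let-7b-3p and let-7d-3p overlapped, as did those of let-7d-3p and let-7a-3p and those of let-7a-3p and let-7e-3p. Below them stood let-7f-2-3p (30.9 ± 4.35), let-7f-1-3p (16.5 ± 2.33), let-7i-3p (6.96 ± 0.771) and let-7c-3p (2.14 ± 0.656), whose ranges did not overlap with their neighbours in this order. miR-98-3p (0.840 ± 0.455) and let-7g-3p (0.118 ± 0.162) came last. The order in Ctrl was another one, with let-7a-3p first at 105 ± 35.6 CPM and let-7b-3p at 22.9 ± 7.86 (SD, n = 2).

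The makeup of the passenger pool shifted toward let-7b-3p in both pulldowns. It took 9.20% ± 1.95 of the 3p reads in Ctrl and 47.5% ± 1.25 in Red (SD, n = 2), and 29.8% ± 5.22 in Input and 56.0% ± 5.27 in IP (SD, n = 5). The share of let-7a-3p went the other way, from 42.0% ± 8.80 in Ctrl to 8.32% ± 0.351 in Red and from 17.2% ± 4.53 in Input to 7.52% ± 3.17 in IP. These shares of one pool are bound to each other, so they are given as a description. The plot of normalized counts by library shows these passengers moving apart.

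**Figure D1:**
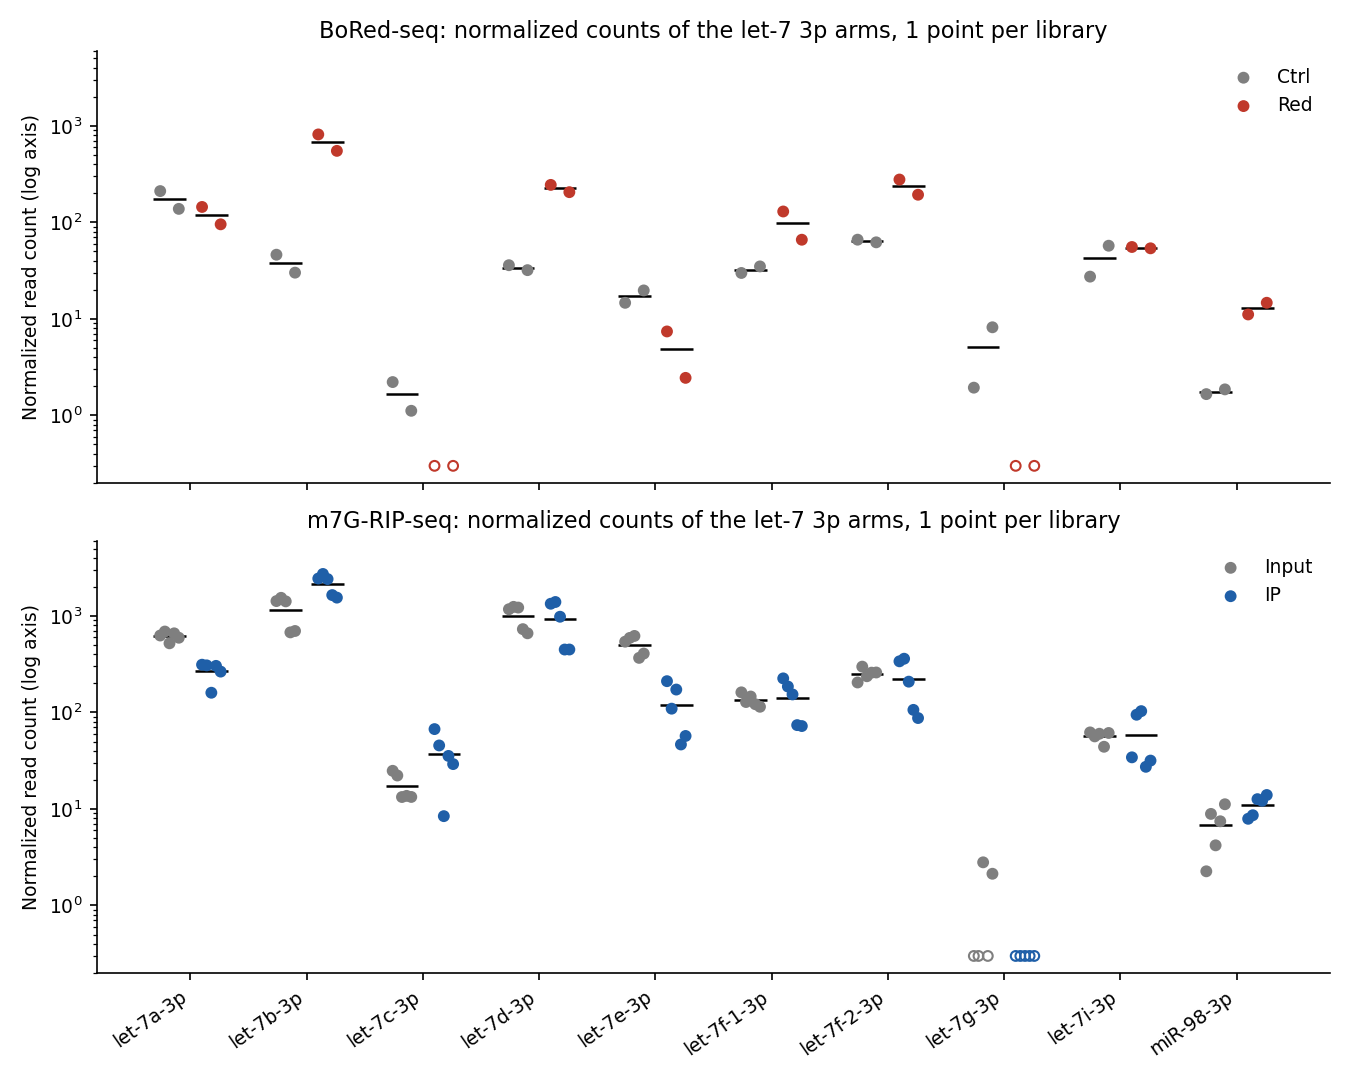
Normalized read counts (log axis) of the 10 let-7 3p arms in each library of BoRed-seq (top; Ctrl grey, Red red) and m7G-RIP-seq (bottom; Input grey, IP blue). Points are libraries, bars are group means, and open points at the bottom are counts of 0. let-7b-3p lies higher in every pulldown library than in any control library of both assays, and let-7e-3p lies lower.

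BoRed-seq asked which miRNAs gain reads once m7G is reduced. After the filter of at least 10 counts in 2 libraries, 7 of the 10 passengers could be tested. let-7b-3p, let-7d-3p, let-7f-1-3p and let-7f-2-3p were enriched in Red, none was called depleted, and let-7a-3p, let-7e-3p and let-7i-3p did not pass the test. Among all 400 miRNAs tested, 32.2% were called enriched and 27.2% depleted at an adjusted p under 0.05. The median log2 enrichment of the 7 was 1.57, and that of all tested miRNAs was -0.09. Enrichments are log2 ratios of normalized counts, relative to the typical miRNA of the assay.

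The largest change was that of let-7b-3p. It had normalized counts of 46.2 and 30.1 in Ctrl and of 815 and 551 in Red, from 167, 81, 220 and 225 reads. Both Red libraries were far above both Ctrl libraries, and the log2 enrichment was 4.15 ± 0.38 (SE, adjusted p = 1.45e-26). Its guide let-7b-5p had a like enrichment of 4.35 ± 0.29. In raw reads let-7b-3p was thus more frequent in the Red libraries than in Ctrl libraries that were many times larger.

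let-7d-3p, the passenger with the largest share of its hairpin, had normalized counts of 36.0 and 32.0 in Ctrl and of 244 and 206 in Red. The groups did not overlap, and the log2 enrichment was 2.72 ± 0.40 (SE, adjusted p = 5.7e-11). The 2 let-7f passengers rose less. let-7f-2-3p had normalized counts of 66.1 and 62.1 in Ctrl and of 278 and 193 in Red (log2 1.87 ± 0.40, adjusted p = 7.06e-06). let-7f-1-3p had 29.9 and 34.9 in Ctrl and 130 and 66.1 in Red (log2 1.57 ± 0.54, adjusted p = 0.0069). The call of let-7f-1-3p was lost without Ctrl replicate 1 (adjusted p = 0.252), Ctrl replicate 2 (0.100) or Red replicate 1 (0.198) and with no filter on low counts (0.144).

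let-7a-3p, with the seed and the guanine of let-7b-3p, was not enriched. Its normalized counts were 211 and 138 in Ctrl and 144 and 95.4 in Red, and the groups overlapped (log2 -0.56 ± 0.44, adjusted p = 0.276). Scaling by library totals in place of medians of ratios moved the median over all miRNAs by 1.12 and turned this value to 0.53 ± 0.48 (adjusted p = 0.365), so its direction depends on the scaling. Under that scaling the calls over all miRNAs split into 175 enriched and 46 depleted, against 129 and 109 here, and under edgeR with TMM factors into 128 and 167. let-7e-3p fell from 53 reads in each Ctrl library to 2 and 1 reads in Red (log2 -1.89 ± 1.26, adjusted p = 0.184). It had passed the filter through its Ctrl counts alone, and a row kept in that way leans toward a lower pulldown. The ratio of its normalized counts was 0.263, with a 95% exact interval of 0.0534 to 0.789 that covers counting error only. This interval holds for median-of-ratios factors and depends on the scaling. By library totals let-7e-3p had 9.02 and 11.3 CPM in Ctrl and 8.26 and 3.60 CPM in Red, a smaller fall. let-7i-3p had normalized counts of 27.4 and 57.3 in Ctrl and of 55.6 and 53.8 in Red, with overlapping groups (log2 0.37 ± 0.62, adjusted p = 0.614). With scaling by library totals it was called enriched (1.51 ± 0.64, adjusted p = 0.0326).

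The other 3 passengers were too rare to be tested in BoRed-seq. miR-98-3p had 6 and 5 reads in Ctrl and 3 and 6 in the much smaller Red libraries, a ratio of normalized counts of 7.60 (95% exact interval 2.78 to 20.2, counting error only). The size of this ratio, too, depends on the scaling. let-7g-3p had 7 and 22 reads in Ctrl and 0 in both Red libraries. No lower bound is given for its change, since it would rest on Ctrl replicate 2 alone. let-7c-3p had 8 and 3 reads in Ctrl and 0 in both Red libraries, and its Ctrl level was under what 3 counts in Red would be.

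Of the 7 tested passengers, 4 had both Red libraries above both Ctrl libraries and 1, let-7e-3p, had both below. That row had passed the filter through Ctrl alone. Among all tested miRNAs, 39.5% lay above in this way and 43.2% below.

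m7G-RIP-seq asked which miRNAs the antibody retains. The filter of at least 10 counts in 5 libraries left 9 of the 10 passengers, all but let-7g-3p. let-7b-3p and let-7c-3p were enriched in IP, let-7a-3p and let-7e-3p were depleted, and the other 5 did not pass the test. Among all 670 miRNAs tested, 27.3% were called enriched and 29.9% depleted. The median log2 enrichment was 0.02 both for the 9 passengers and for all tested miRNAs.

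let-7b-3p was again higher in the pulldown. Its normalized counts in replicates 1 to 5 were 1426, 1542, 1417, 676 and 699 in Input and 2443, 2724, 2413, 1646 and 1549 in IP. The lowest IP library was just above the highest Input library, and the log2 enrichment was 0.90 ± 0.31 (SE, adjusted p = 0.00709). Its guide let-7b-5p had 1.76 ± 0.20.

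let-7a-3p was lower in the pulldown, while its guide was higher. Its normalized counts were 627, 690, 521, 661 and 595 in Input and 313, 308, 160, 304 and 265 in IP. No IP library reached any Input library (log2 -1.19 ± 0.21, adjusted p = 1.2e-07), whereas let-7a-5p was enriched with 0.95 ± 0.15 (adjusted p = 3.64e-09).

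let-7e-3p had the largest depletion of the 9. Its normalized counts were 541, 593, 621, 368 and 408 in Input and 211, 110, 173, 46.6 and 57.1 in IP, with all IP libraries below all Input libraries (log2 -2.09 ± 0.41, adjusted p = 1.32e-06). Its guide let-7e-5p had the largest enrichment of the 9 guides, 2.25 ± 0.23 (adjusted p = 1.49e-20).

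let-7c-3p was a rare passenger with 19 to 35 reads per Input library and 4 to 51 per IP library. Its normalized counts were 24.9, 22.2, 13.3, 13.7 and 13.3 in Input and 67.3, 45.5, 8.43, 35.5 and 29.2 in IP. IP replicate 3 lay below all Input libraries and the other 4 above them (log2 1.11 ± 0.51, adjusted p = 0.0490). The call was lost with the replicate number as a block (0.95 ± 0.50, adjusted p = 0.0813), with edgeR (0.0934), with no filter (0.0871) and in 9 of 10 fits without 1 library, where the adjusted p reached 0.172 without IP replicate 1. It held without IP replicate 3.

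The remaining passengers had estimates near 0 with wide errors. They were -0.12 ± 0.38 for let-7d-3p, 0.08 ± 0.35 for let-7f-1-3p, -0.19 ± 0.40 for let-7f-2-3p, 0.02 ± 0.44 for let-7i-3p and 0.66 ± 0.60 for miR-98-3p (adjusted p 0.347 to 0.970). Their IP and Input libraries overlapped, and the signs of let-7d-3p and let-7f-2-3p turned with scaling by library totals. let-7g-3p had 0, 0, 4, 0 and 4 reads in Input and 0 in all IP libraries, which was not enough for a comparison. Of the 9 tested, 1 had all IP libraries above all Input libraries and 2 had all below, against 18.2% and 24.2% of all tested miRNAs.

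**Figure D2:**
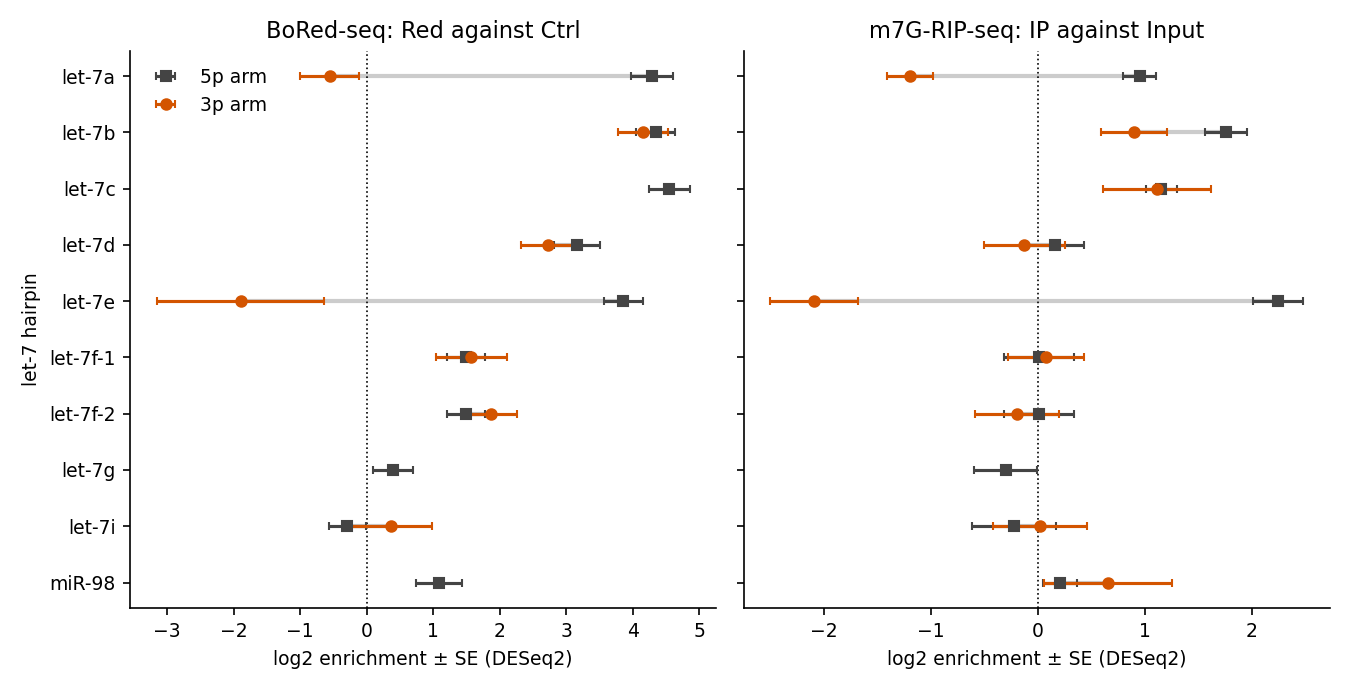
Log2 enrichment (± SE, DESeq2) of the 3p arm (orange circles) and the 5p arm (dark squares) of each let-7 hairpin, in BoRed-seq (Red against Ctrl, left) and m7G-RIP-seq (IP against Input, right), with a grey bar between the arms. The arms lie far apart for let-7a and let-7e in both assays, and within 1 log2 unit for the other hairpins with both arms tested. A 3p point is missing where the arm did not pass the filter.

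Setting each passenger beside its guide asks whether the pulldown changed the ratio of the 2 arms, a question that does not depend on how libraries are scaled. The guides themselves were enriched in 7 of 9 cases in BoRed-seq and 4 of 9 in m7G-RIP-seq. In BoRed-seq let-7a-3p and let-7e-3p lost ground against their guides, and the other 5 of the 7 pairs did not pass the test. The let-7e-3p row had entered this test through its Ctrl counts alone, so the filter itself favoured a lower ratio. In m7G-RIP-seq let-7a-3p, let-7b-3p and let-7e-3p lost ground, and 6 of 9 did not pass. Among the pairs tested, none was called higher in 3p in either assay. The untested miR-98-3p had a share of 0.762% and 0.858% in Ctrl and of 2.00% and 3.75% in Red, from 3 and 6 reads there. The untested let-7c-3p went the other way, from 1.54% and 0.896% in Ctrl to 0 reads in Red, beside 973 and 1064 reads of let-7c-5p. let-7g-3p, also untested, had 0.0507% and 0.297% in Ctrl and 0 reads in Red, beside 1291 and 1594 reads of let-7g-5p. At the share of Ctrl replicate 1, such guide counts would bring hardly any 3p read, so these 0 reads do not show a loss.

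The background over all arm pairs was 9.73% with a higher and 17.7% with a lower 3p arm among 113 pairs in BoRed-seq, and 19.5% and 27.2% among 169 pairs in m7G-RIP-seq. The median log2 shift of the 3p/5p ratio was -0.18 for the 7 let-7 pairs and 0.10 for all pairs in BoRed-seq. In m7G-RIP-seq it was -0.27 for both.

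let-7a-3p made up 1.62% and 1.43% of the reads of its 2 arms in Ctrl and 0.0556% and 0.0540% in Red. Its share was 0.140%, 0.176%, 0.127%, 0.198% and 0.169% in Input and 0.0373%, 0.0358%, 0.0254%, 0.0437% and 0.0371% in IP. The pulldown shares lay below all control shares, and the log2 shift was -4.82 ± 0.16 in BoRed-seq (edgeR adjusted p = 1.85e-05) and -2.18 ± 0.19 in m7G-RIP-seq (1.08e-05). let-7a-5p also comes from MIRLET7A2, whose passenger is a row of its own, hsa-let-7a-2-3p. That row went from 25 and 24 reads in Ctrl to 0 in both Red libraries and was depleted in IP (log2 -1.81 ± 0.49, adjusted p = 0.000528). With median-of-ratios factors it was at least 1.76-fold lower in Red when 3 counts are allowed over both libraries. That bound depends on the scaling. By library totals its Ctrl levels were 4.26 and 5.13 CPM, under the 12.4 and 10.8 CPM of 3 counts in each Red library.

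let-7e-3p made up 1.03% and 1.42% in Ctrl and 0.0312% and 0.0147% in Red. In Input its share was 1.15%, 1.29%, 1.44%, 0.811% and 0.956%, and in IP 0.150%, 0.0634%, 0.100%, 0.0174% and 0.0190%. The groups did not overlap in either assay. The shifts were -5.74 ± 0.46 (edgeR adjusted p = 0.000895), which rests on 3 reads in Red, and -4.44 ± 0.61 (0.000183). In BoRed-seq the row was kept by the filter through Ctrl alone.

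let-7b-3p had overlapping shares in Ctrl and Red and a lower share in IP than in Input. It made up 3.73% and 2.93% in Ctrl and 3.07% and 2.83% in Red, with overlapping groups (shift -0.18 ± 0.27, edgeR adjusted p = 0.650). In Input it made up 2.93%, 3.32%, 3.19%, 2.31% and 2.38%, and in IP 2.11%, 1.96%, 1.72%, 1.19% and 1.18%, all below Input (shift -0.83 ± 0.23, adjusted p = 0.0123). That call was just lost with no filter on low counts (0.0504). For let-7a-3p, let-7b-3p and let-7e-3p the two-sided exact permutation test over the 10 m7G-RIP-seq libraries gave p = 0.00794, its smallest value, and the exact test within the 5 pairs gave p = 0.0625, also its smallest, with a lower ratio in IP in 5 of 5 pairs for each. The test within pairs gave let-7d-3p that same exact p of 0.0625. Neither exact test was adjusted over the members. How many of all 169 pairs had every IP ratio below every Input ratio was not counted.

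The other pairs did not pass the test, which with 2 libraries per group does not show that their ratio held. The shifts in BoRed-seq were -0.44 ± 0.41 for let-7d-3p, 0.05 ± 0.22 for let-7f-1-3p, 0.38 ± 0.18 for let-7f-2-3p and 0.77 ± 0.42 for let-7i-3p. In these libraries the ratios of let-7f-2-3p and let-7i-3p were higher in both Red libraries than in both Ctrl libraries, and that of let-7d-3p was lower in both. For each of these arms the exact permutation test gave p = 0.333, its smallest value. How many of all 113 pairs separate in this way was not counted. In m7G-RIP-seq they ran from -0.35 ± 0.24 for let-7d-3p to 0.51 ± 0.36 for miR-98-3p. Of the tested pairs, let-7f-1-3p had the shift nearest to 0 in each assay, 0.05 and 0.08 ± 0.15. The share of let-7d-3p was 21.7% ± 2.82 in Ctrl and 16.9% ± 1.99 in Red (SD, n = 2), and 17.9% ± 1.87 in Input and 14.8% ± 2.99 in IP (SD, n = 5).

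**Figure D3:**
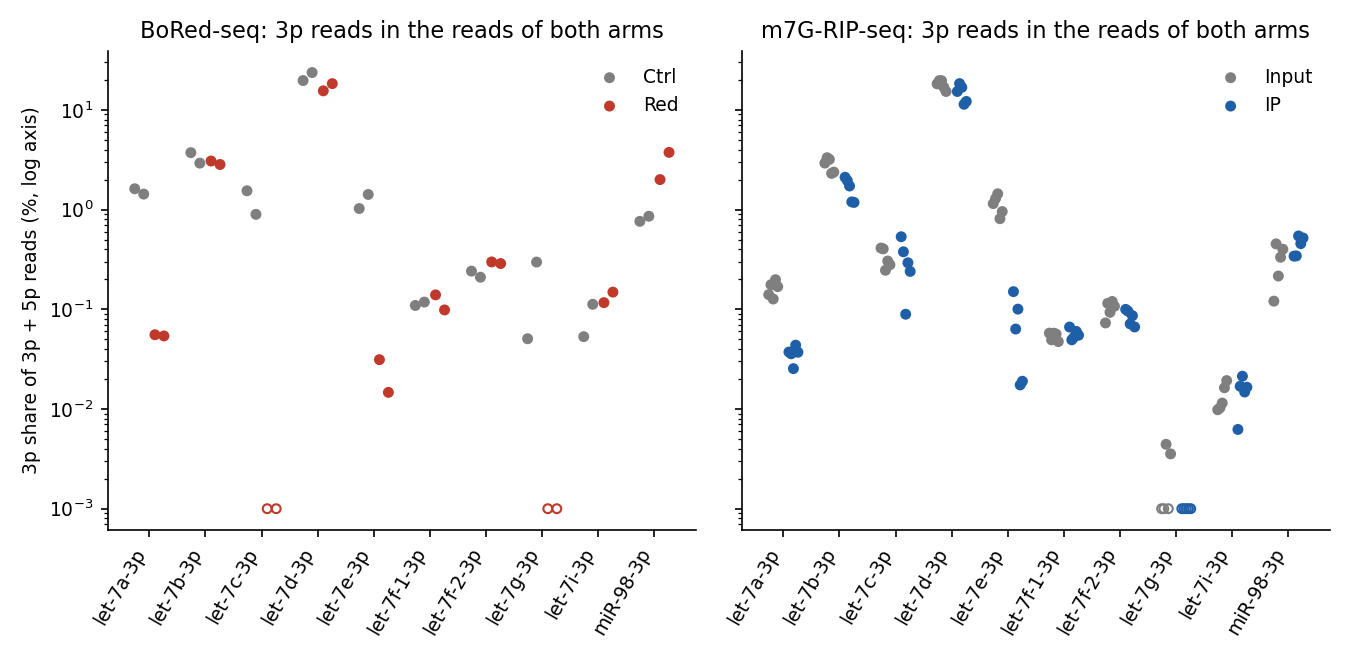
Share of 3p reads in the reads of both arms of a hairpin (percent, log axis), 1 point per library, in BoRed-seq (left; Ctrl grey, Red red) and m7G-RIP-seq (right; Input grey, IP blue). Open points at the bottom are shares of 0. The shares of let-7a-3p and let-7e-3p drop in both pulldowns, while that of let-7d-3p stays between 11.4% and 23.7% in all 14 libraries.

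**Figure D4:**
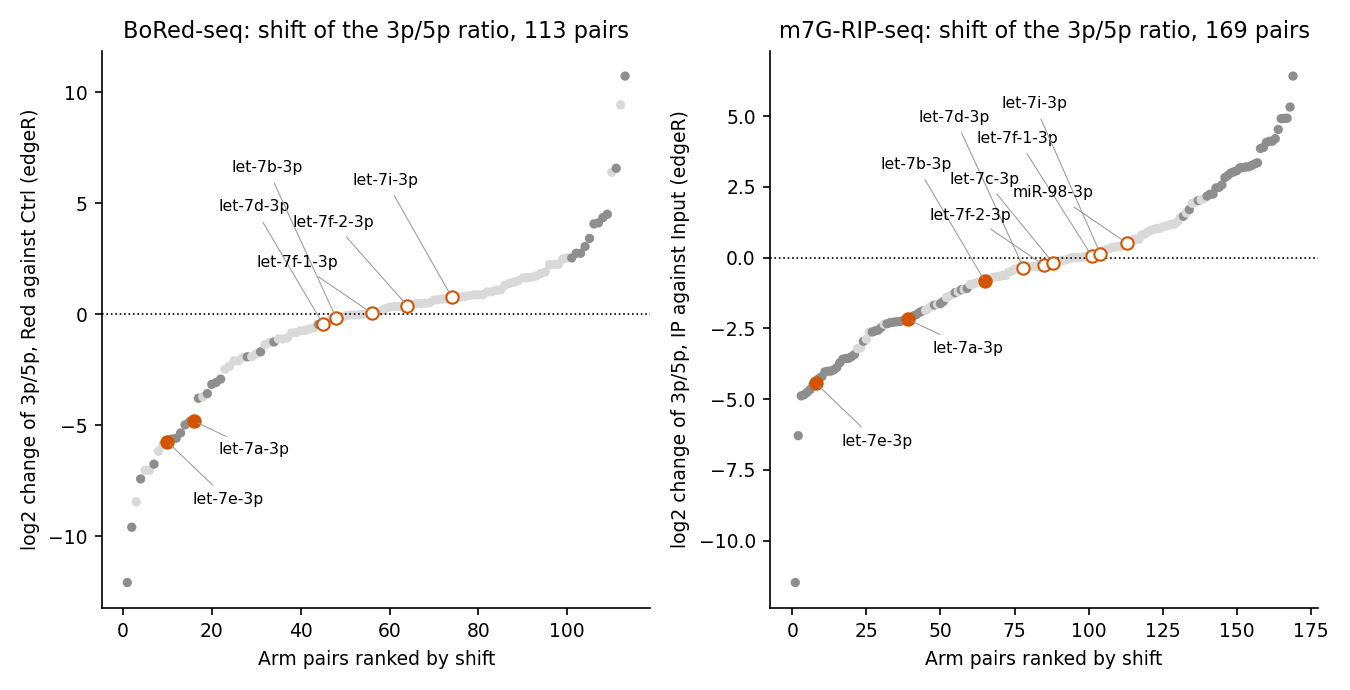
Log2 change of the 3p/5p ratio in the pulldown (edgeR) for all arm pairs, ranked, in BoRed-seq (113 pairs, left) and m7G-RIP-seq (169 pairs, right). Dark grey points passed the test, and the let-7 pairs described here are orange, filled where they passed. let-7e-3p and let-7a-3p lie on the low side in both assays, and the other let-7 pairs lie nearer to 0.

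The 4 passengers with the seed UAUACAA did not move as a group. Their log2 enrichments in BoRed-seq were -0.56 for let-7a-3p, 4.15 for let-7b-3p and 1.57 for let-7f-1-3p, and in m7G-RIP-seq -1.19, 0.90 and 0.08, with 0.66 for miR-98-3p. Among the first 3, the number and the position of the guanine were the same. These differences between passengers were not tested.

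BoRed-seq and m7G-RIP-seq use different libraries, so the enrichment of a passenger in one could be tested against that in the other, for the 7 passengers tested in both. let-7b-3p had the higher enrichment in BoRed-seq by 3.25 ± 0.49 log2 units (z test, adjusted p = 5.14e-10), let-7d-3p by 2.85 ± 0.55 (2.2e-06) and let-7f-2-3p by 2.06 ± 0.56 (0.00122). The guides of these passengers were higher in BoRed-seq too, by 2.58 ± 0.35 for let-7b-5p, 3.01 ± 0.44 for let-7d-5p and 1.48 ± 0.44 for let-7f-5p. The controls also differ, since Ctrl was retained by the beads and Input was unselected. For let-7f-1-3p the difference was 1.49 ± 0.64 (0.0519), for let-7a-3p 0.63 ± 0.49, for let-7i-3p 0.35 ± 0.76 and for let-7e-3p 0.20 ± 1.32. Of 384 miRNAs tested in both, 29.4% had the higher enrichment in BoRed-seq, while 8.59% had it in m7G-RIP-seq. Relative to their assays, let-7b-3p was called enriched and let-7e-3p had a negative estimate in both. The call of let-7f-2-3p was lost in a single interaction fit of all 14 libraries (adjusted p = 0.0672).

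Within m7G-RIP-seq, replicates 1 to 3 and replicates 4 and 5 were also compared with each other, as sets that the labels do not call batches. Of 488 miRNAs with an adjusted p for the interaction, 16.2% had a higher IP enrichment in replicates 4 and 5 and 10.7% a lower one. Among the passengers 4 of the 8 tested were lower there and none was higher. The log2 difference was -1.71 ± 0.43 for let-7f-2-3p (DESeq2 interaction, adjusted p = 0.000656), -1.08 ± 0.43 for let-7f-1-3p (0.0476), -1.07 ± 0.41 for let-7e-3p (0.0389) and -0.67 ± 0.25 for let-7d-3p (0.0333).

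For let-7f-2-3p the log2 ratio of IP over Input with the same number was 0.73, 0.27 and -0.19 in replicates 1 to 3 and -1.28 and -1.56 in replicates 4 and 5. For let-7f-1-3p it was 0.48, 0.53 and 0.07 and then -0.72 and -0.66. Both sets of replicates were thus on different sides of 0 for let-7f-1-3p, with no overlap. Their shared guide let-7f-5p moved by -1.19 ± 0.18 in the same comparison (adjusted p = 1.6e-09). The guide let-7e-5p moved the other way from its passenger, by 0.85 ± 0.17 (1.63e-05).

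let-7a-3p kept its depletion in both sets, with log2 ratios of -1.004, -1.16 and -1.70 in replicates 1 to 3 and -1.12 and -1.16 in replicates 4 and 5. let-7e-3p was below Input in all 5 pairs, from -1.36 to -2.97, and let-7b-3p above in all 5, from 0.77 to 1.28. Fitted within either set alone, let-7b-3p was called enriched and let-7a-3p and let-7e-3p depleted. Within replicates 4 and 5 alone, let-7d-3p (-0.67, adjusted p = 0.00257) and let-7f-2-3p (-1.45, adjusted p = 4.27e-05) were depleted as well. The share called over all miRNAs within a set is not given here, so these calls have no background beside them.

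**Figure D5:**
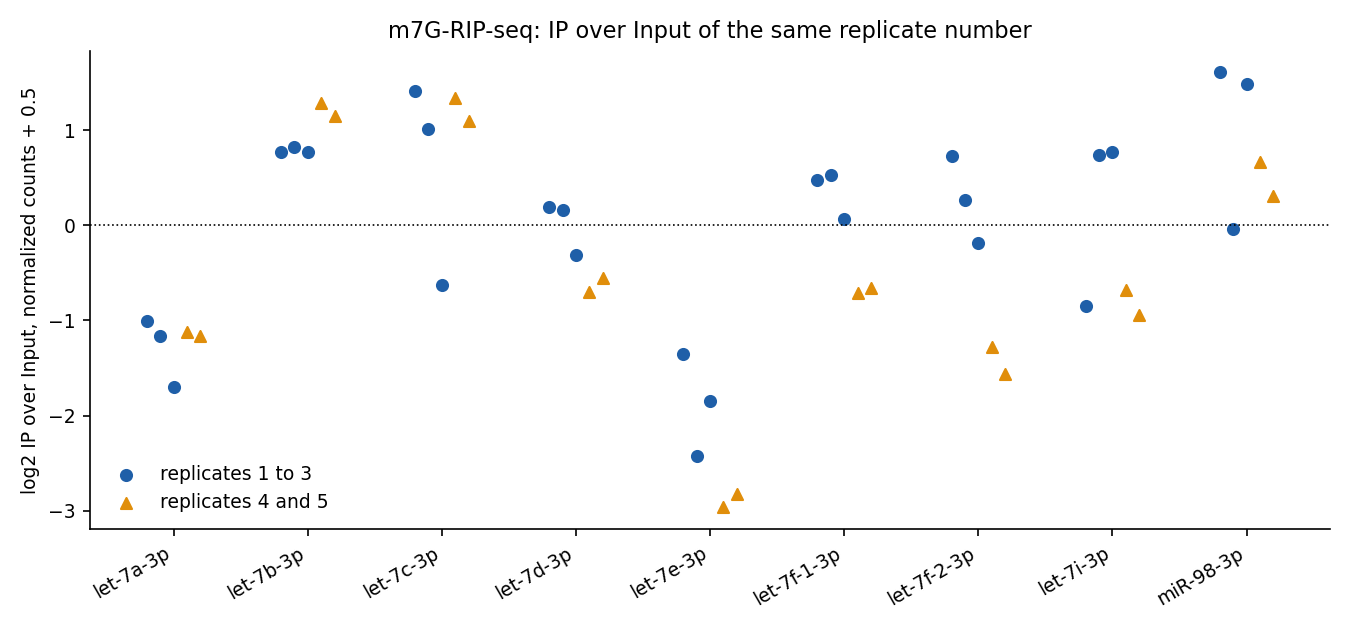
Log2 ratio of IP over the Input of the same replicate number, from normalized counts + 0.5, for the 9 passengers tested in m7G-RIP-seq. Blue circles are replicates 1 to 3 and orange triangles are replicates 4 and 5. let-7a-3p and let-7e-3p lie below 0 in all 5 pairs and let-7b-3p above, while let-7f-1-3p and let-7f-2-3p lie lower in replicates 4 and 5 than in replicates 1 to 3.

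The 3p arms of the miR-99, miR-100 and miR-125 hairpins, which are transcribed next to let-7 hairpins, served as neighbours, and 4 of these 6 rows passed the filters. In BoRed-seq miR-125a-3p was enriched (1.93 ± 0.52) and miR-125b-2-3p depleted (-1.93 ± 0.76). In m7G-RIP-seq miR-125a-3p (2.26 ± 0.26) and miR-125b-1-3p (1.28 ± 0.18) were enriched, and miR-99b-3p (-0.69 ± 0.29) and miR-125b-2-3p (-1.83 ± 0.27) depleted. miR-125a and miR-99b share a transcript with let-7e, and their passengers had opposite calls in IP. Over all rows named 3p, 21.5% of 163 were enriched in BoRed-seq and 19.7% of 274 in m7G-RIP-seq.

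The miRNAs outside the family whose normalized counts followed let-7b-3p most closely over the 14 libraries, on a log2 scale centred within each assay, were miR-92b-5p (Pearson's r = 0.981), miR-3182 (0.965) and miR-6087 (0.947). For let-7d-3p they were miR-744-5p (0.957), miR-1260b (0.900) and miR-92b-5p (0.881). These are descriptions over 136 candidates that share the same libraries, so the step from control to pulldown enters every value.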

How the data were processed

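The authors deposited unnormalized read counts for each mature miRNA and library, in a table for either assay. They had trimmed stranded 50-base reads with Trimmomatic, aligned them to GRCh38/hg38 and counted miRBase miRNAs with featureCounts. The study's methods name STAR, end to end with at most 1 mismatch and up to 10 loci per read, whereas the submitters' processing notes name Bowtie2. How a read that fit several loci was counted is not given in the sources used here.

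Each table was fitted whole, with DESeq2 1.42.0 (R 4.3.3, Wald test, median-of-ratios factors, unshrunken log2), keeping rows that reached 10 counts in 2 (BoRed-seq) or 5 (m7G-RIP-seq) libraries. The 3p/5p ratio was tested with edgeR 4.0.16 (quasi-likelihood, a term per library), with limma 3.58.1 as an alternative. Benjamini-Hochberg adjustment ran over all miRNAs or pairs, with calls under 0.05. Adjusted p-values are those of DESeq2 unless another tool is named. Exact permutation tests (free, and within pairs) used log2((3p + 0.5)/(5p + 0.5)). Scripts were tested on simulated data. The arms, their partners, the neighbouring hairpins and the tests were chosen with earlier results of these data known. miRNAs outside these lists were named only as the 3 most correlated with each of the 2 most abundant members.

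The main DESeq2 and edgeR fits held no term for the replicate number. In m7G-RIP-seq, where Input was an aliquot of the RNA used for IP, the numbers in the labels served as pairs in other steps. These were the fits with the replicate block, the exact tests within pairs and the ratios of IP over Input with the same number. Deviations from the group means correlated at 0.146 to 0.387 between libraries with the same number and at -0.286 to 0.373 between others. These ranges overlap, and IP 4 correlated at 0.359 with Input 5 and at 0.310 with Input 4. The correlations thus do not show a pairing by number. Replicates differed by 12.6 to 1734 in chi-square per degree of freedom, so no library was a copy of another.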

Additional observations from a re-analysis of the deposited data

Results flagged for a closer look

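For 4 passengers the IP enrichment differed between replicates 1 to 3 and replicates 4 and 5 in the DESeq2 interaction test. The difference, replicates 4 and 5 minus replicates 1 to 3, was -1.71 log2 units for let-7f-2-3p, -1.08 for let-7f-1-3p, -1.07 for let-7e-3p and -0.67 for let-7d-3p. With scaling by library totals the differences were -1.95, -1.31, -1.32 and -0.90, and all 4 were called again (adjusted p 4.79e-05 to 0.0251). Input levels differed between the sets as well: let-7d-3p had normalized counts of 1174 to 1243 in Input replicates 1 to 3 and of 661 and 730 in replicates 4 and 5. What set the replicates apart was not tested. Single libraries far from the rest of their group were searched for in 36 groups of 5, where chance gives about 1 in 20, and 0 were found.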

How the results depend on the processing

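Of 106 recomputed counts of called passengers, 87 kept within 1.5 times the reported count. Counts of 0 that stayed at 0 are among the 87. With 2 Red libraries and few reads per arm, small changes in BoRed-seq would be missed. let-7a-3p and let-7e-3p kept their lower 3p/5p ratio under every alternative in both assays, and let-7b-3p its enrichment in both.

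With edgeR and TMM factors, 1 passenger was depleted in BoRed-seq (let-7e-3p, adjusted p = 0.0430) and 1 enriched in m7G-RIP-seq. That last count was also 1 with no filter, with the replicate block, within replicates 1 to 3 and within replicates 4 and 5, and 1 to 2 without 1 library, each time for want of let-7c-3p. Within replicates 4 and 5, let-7d-3p and let-7f-2-3p were called depleted in m7G-RIP-seq as well. With library totals, 5 had a higher enrichment in BoRed-seq than in m7G-RIP-seq. The count of passengers that gained on their guide in BoRed-seq was 0 to 1 without 1 library: let-7f-2-3p without Ctrl replicate 1 (0.48, adjusted p = 0.0492) and let-7i-3p without Ctrl replicate 2 (1.32, adjusted p = 0.00931).

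Signs turned for values near 0. In BoRed-seq, library totals called let-7i-3p enriched (1.51) and gave 0.53 for let-7a-3p and 0.80 for let-7i-5p, and no filter gave -0.13 for let-7i-3p and -0.074 for let-7g-5p. In m7G-RIP-seq, library totals (median shift 0.33, with 232 miRNAs enriched and 164 depleted against 183 and 200) gave 0.24 for let-7d-3p, 0.15 for let-7f-2-3p, 0.051 for let-7g-5p and 0.15 for let-7i-5p. No filter gave -0.014 for let-7i-3p and -0.021 for let-7f-5p. Within replicates 1 to 3 let-7f-2-3p was 0.26. Within replicates 4 and 5 let-7f-1-3p was -0.72, let-7i-3p -0.87, let-7d-5p -0.14, let-7f-5p -0.88 and the arm shift of let-7i-3p -0.20. The replicate set as a term gave -0.036 for let-7f-1-3p, -0.10 for let-7i-3p and -0.13 for let-7f-5p. The interaction over 14 libraries gave -0.28 for let-7e-3p and -0.10 for let-7i-3p, and library totals turned the replicate set difference of let-7a-3p to -0.15. The causes were not tested.

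Without 1 library, BoRed-seq enrichment ran from -0.17 to 0.96 for let-7i-3p, and the arm shift from -0.35 to 0.0065 for let-7b-3p and -0.21 to 0.29 for let-7f-1-3p. In m7G-RIP-seq, enrichment ran from -0.32 to 0.055 for let-7d-3p, -0.15 to 0.26 for let-7f-1-3p, -0.44 to 0.017 for let-7f-2-3p and -0.30 to 0.21 for let-7i-3p, -0.024 to 0.29 for let-7d-5p and -0.17 to 0.19 for let-7f-5p, and the arm shift from -0.43 to 0.10 for let-7c-3p and -0.018 to 0.41 for let-7i-3p.

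With the replicate block in m7G-RIP-seq, let-7f-1-3p was -0.051, let-7i-3p -0.18 and let-7f-5p -0.13, and no call of a passenger changed except that of let-7c-3p (0.95). The study's protocol makes a reduced and a control reaction for each sample, but in BoRed-seq the numbers were not taken as a pairing. With 2 libraries per group the correlation across numbers (-0.11) is bound to mirror that within (0.11), so it cannot decide. The replicate block left 4 enriched in BoRed-seq. The exact tests within m7G-RIP-seq pairs, added after the data were seen, cannot reach 0.05.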

Other observations

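Over all miRNAs with a RefSeq sequence, the share enriched was highest among those with the most guanines. In BoRed-seq 78.0% of the 59 miRNAs with 9 or more guanines were enriched, against 25.2% of 127 with 6 to 8, 20.8% of 144 with 3 to 5 and 24.0% of 25 with 0 to 2. In m7G-RIP-seq the shares were 65.4% of 136, 21.1% of 213, 13.0% of 208 and 22.2% of 45. The share depleted was highest with 3 to 5 guanines, at 34.7% in BoRed-seq (median log2 -0.99) and 45.2% in m7G-RIP-seq (median -0.97), and lowest with 9 or more, at 5.08% and 5.88%. let-7b-3p, with 1 guanine and calls in both assays, belongs to the small group with 0 to 2, in which BoRed-seq enriched 6 miRNAs and m7G-RIP-seq 10. These shares are a description, with no test, and abundance and sequence composition were not set apart.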
